A study of Homo sapiens with 9 samples.

Results

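H3K27ac marks active promoters and enhancers, and where it spreads over many kilobases without a break the region is often called a super-enhancer or a broad acetylated domain. Such domains collect transcription factors and co-activators and tend to lie at genes that define a cell type. EZH2 is the methyltransferase of Polycomb repressive complex 2 and places the silencing mark H3K27me3 on the same lysine that carries the acetyl group, so 1 histone tail cannot hold both marks at that position. The 500 widest H3K27ac regions of control LNCaP cells are described here, selected on their width alone. They were taken from 55120 regions on chromosomes 1 to 22 and X that lay more than 2 Mb from the longest stretch of their chromosome without a listed region, out of 58134 regions in the deposited list. Of the 544 listed regions at least as wide as the narrowest of them, 16 lay on other chromosomes or contigs and 28 lay near such a stretch.

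LNCaP cells are an established line from a human prostate cancer and express the androgen receptor. EZH2, H3K27ac and H3K27me3 were each mapped by ChIP-seq in shEZH2 cells, infected with a lentivirus for EZH2 knockdown, and in control cells with the plko.1 label, the name of the empty vector; both were grown in RPMI with 10% FBS. The title of the series asks about EZH2 as an activator of transcription apart from Polycomb and from methylation. Each of the 6 groups held 1 library, so no difference between shEZH2 and control cells has a replicate check, no test is given, and all intervals below are 95% intervals that cover counting over regions or peaks only.

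The EZH2 libraries held 14514395 tags in shEZH2 cells and 13331155 in control cells, the H3K27ac libraries 22175405 in shEZH2 cells and 17438009 in control cells, and the H3K27me3 libraries 26241104 in shEZH2 cells and 33289172 in control cells. A tag is an aligned read position, and the tags given below are the deposited values per region, scaled by the authors to 10000000 tags a library. The H3K27ac regions were called with windows of 1000 bp in shEZH2 cells and of 150 bp in control cells, at a threshold of 9.47 tags per kb in shEZH2 cells against 34.4 in control cells, so a region of the shEZH2 list is wider at the same signal. No input library was used in any of the lists, and coordinates are in hg19. As a check of the labels, the EZH2 list held 9493 peaks in shEZH2 cells and 23060 in control cells; the EZH2 protein itself was not measured in these files.

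The 500 regions ran from 4695 to 46273 bp, with a median of 5802 bp, against a median of 426 bp for the other 54620 regions. The narrowest of them, chr2:70311929-70316623, was 4695 bp wide with 865.4 tags, and the first region left out, chr2:103235309-103239998, was 4690 bp wide with 445 tags. Most lay near that limit: 270 were under 6 kb, 46 were over 10 kb and 6 were over 20 kb. Together they covered 3.43 Mb, which was 7.64% of the length in all the regions and 0.907% of their number, and they held 12.2% of the tags.

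Wide regions were also densely acetylated; their tags come from the library that chose them, so these values are a description. They held 228.2 to 35003.4 tags, with a median of 816, against a median of 18.9 in the other regions. Per length their median was 136 tags per kb, against 45.6 tags per kb in the other regions, and single regions ran from 47.7 to 756 tags per kb. Regions closer in width differed less. The median was 127 tags per kb for those ranked 501 to 1000 by width, 114 for ranks 1001 to 2000 and 107 for ranks 2001 to 5000. It was 96.1 for ranks 5001 to 10000 and 42.2 for the remaining ranks. Among the 500, width said little about density (Spearman rho 0.13 across regions, which share 1 library).

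One region stood far apart. The widest, chrX:114959455-115005727, spanned 46273 bp with 35003.4 tags, which was 6.60% of all the tags in the 500, at 756 tags per kb. The next highest density was 363 tags per kb. Whether this stretch is repeated or amplified sequence was not tested, and its tags, density and EZH2 peaks are given with that doubt. Nor was this tested for the other regions. On chromosome 5, chr5:68999082-69008336, chr5:69138486-69147875 and chr5:69695235-69704615 were alike in width (9255 to 9390 bp) and in density (114 to 126 tags per kb). Such regions, and the EZH2 peaks in them, are counted as separate below. Without the widest region the others held 11.4% of the tags. The shares, peaks per Mb and H3K27ac ratios of the whole set given below, recomputed without it, moved by less than their intervals.

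The next 5 by width differed less from each other. On chromosome 15, chr15:89655308-89685556 spanned 30249 bp with 4395.6 tags. On chromosome 19, chr19:13105421-13130507 spanned 25087 bp with 4889.9 tags. On chromosome 16, chr16:88819850-88841779 spanned 21930 bp with 3774.5 tags. These 3 lay between 145 and 195 tags per kb, above the median of the set. The other two over 20 kb were chr7:89839757-89860543, of 20787 bp with 3431.6 tags, and chr14:100026136-100046727, of 20592 bp with 3603.0 tags. Of the 10 widest, 7 were also among the 10 with the most tags. An annotation of hg19 was not used here, so genes are not named at these positions.

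The regions were spread over all 23 chromosomes compared, in unequal shares. Chromosome 22 had 1.58% of its regions in the set (interval 0.966 to 2.43, 20 of 1268 regions). Of these 20, 8 lay in 1 stretch of 76.0 kb, and the intervals count such neighbours as separate. Chromosome 19 had 1.57% (1.11 to 2.14, 38 of 2427 regions) and chromosome 11 had 1.48% (1.07 to 2.00, 42 of 2838). The lowest shares were 0.226% on chromosome X (0.0467 to 0.660, 3 of 1326) and 0.388% on chromosome 2 (0.217 to 0.640, 15 of 3863), against 0.907% over all chromosomes.

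Some of the regions had neighbours of their kind. The median distance to the next one on the same chromosome was 853 kb, but 133 of 477 neighbouring pairs were closer than 100 kb, 52 were closer than 12.5 kb and 22 were closer than 1 kb. A total of 216 of the 500 had another within 100 kb. Joined at that distance, 284 stood alone and the others formed 59 pairs, 8 groups of 3, 9 groups of 4, 6 groups of 5 and 1 group of 8. The spacing of narrower regions was not counted, so these numbers are a description and do not show more clustering than elsewhere. Whether the closest pairs are 1 acetylated stretch that the caller split was not tested.

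The group of 8 lay at chr22:46436378-46512417, spanning 76.0 kb with 13013 tags in its widest regions. Its densest region, chr22:46464172-46478155, held 4396.1 tags over 13984 bp, or 314 tags per kb. At the far end of the same group, chr22:46507636-46512417 held 228.2 tags, the lowest number in the set. The group thus ran from the dense to the sparse end of the 500 within 1 locus. It held 1 EZH2 peak in the shEZH2 list and 1 in the control list, and the shEZH2 H3K27ac list drew all 8 as a single region.

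Super-enhancers are usually defined by joining enhancers closer than 12.5 kb and taking the domains above the point where the curve of ranked signal turns steep. Done with the shEZH2 H3K27ac list, this gave 29295 domains and put 666 above a level of 1203.2 tags, with 377 of the 500 regions inside them. With the control list it gave 23512 domains and put 471 above a level of 1163 tags, with 343 of the 500 inside. The level depends on the top domain, at the chromosome X region: without it the shEZH2 level was 805 tags, with 449 of the 500 inside 1306 domains, and the control level was 816 tags, with 421 inside 882 domains. No promoters were removed, so these domains hold promoters and enhancers alike. The control domains were ranked by tags of the library whose widths chose the 500, so the selection favours that overlap. The share of narrower regions inside the domains was not counted. With all domains kept, those above the level held 27.7% of the tags in shEZH2 cells and 23.6% in control cells.

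EZH2 peaks were found in the widest regions in both lists. In the shEZH2 EZH2 list 79 of the 500 held a peak (15.8%, interval 12.7 to 19.3), against 4% of all 55120 regions. In the control list 200 of the 500 held one (40%, 35.7 to 44.4), against 11.8% of the other regions and 12.1% of all. The difference from the other regions in the control list was 28.2 percentage points (Newcombe interval 24.0 to 32.6). Counted as peaks, the 500 held 87 in the shEZH2 list and 258 in the control list.

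Most of the regions with EZH2 held a single peak. In the shEZH2 list 421 regions held none, 71 held 1 and 8 held 2. In the control list 300 held none, 150 held 1, 42 held 2 and 8 held 3. A peak in the shEZH2 list and none in the control list was seen in 12 regions. The matching share over all H3K27ac regions was not counted, so this number is a description alone.

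The contrast was smaller against regions closer in width. Set against the regions ranked 501 to 1000 by width, of which 34.8% held a control EZH2 peak, the 500 were higher by 5.2 points, and the interval of that difference (-0.80 to 11.1) includes 0. The share was 31.6% for ranks 1001 to 2000, 34.1% for ranks 2001 to 5000 and 32.9% for ranks 5001 to 10000, and the 500 were higher by 8.40 points (3.27 to 13.6), 5.90 points (1.36 to 10.6) and 7.14 points (2.74 to 11.7). It was 7.30% for the remaining ranks, so most of the contrast with the whole list lay there. Within the widest regions themselves the share was 40%, 36.8%, 43.2% and 40% in 4 equal groups of increasing width.

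Per length, the widest regions were the lowest. The 500 held 75.3 control EZH2 peaks per Mb (exact Poisson interval 66.4 to 85.1), against 106 per Mb for ranks 501 to 1000, 118 for ranks 1001 to 2000, 167 for ranks 2001 to 5000 and 220 for ranks 5001 to 10000. The remaining ranks held 168 per Mb. Against all the other regions, at 171 per Mb, the ratio was 0.440 (0.387 to 0.498). In the 4 width groups of the 500 the values were 101, 82.2, 91.8 and 49.8 peaks per Mb. Over the first 10000 ranks the share of regions with a peak lay between 31.6% and 40%, whereas the peaks per Mb lay between 75.3 and 220.

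**Figure D1:**
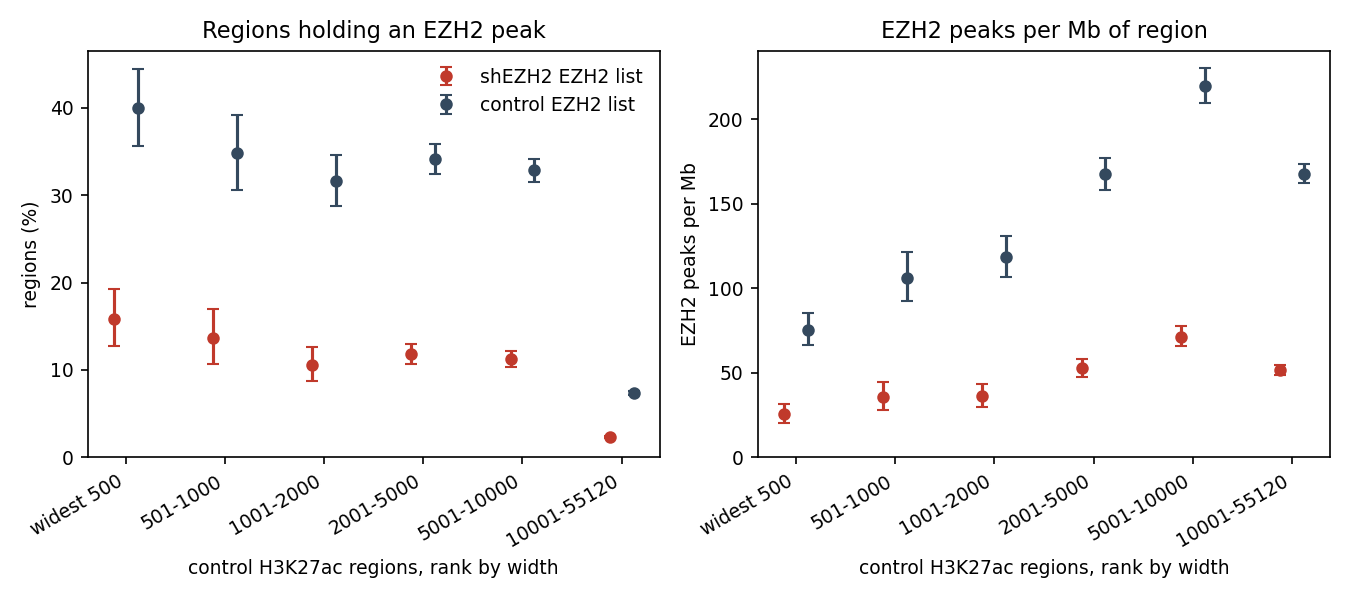
EZH2 peaks in control H3K27ac regions by rank of width, as the percent of regions that hold a peak (left) and as peaks per Mb of region (right), with the shEZH2 list in red and the control list in dark blue and 95% intervals as bars. In the control list the widest 500 sit at 40% on the left and at 75.3 peaks per Mb, the lowest of the 6 classes, on the right.

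Next to the widest regions EZH2 peaks were rare outside acetylated stretches. Within 10 kb of the 500 regions and outside any H3K27ac region, 17 control EZH2 peaks lay in the remaining 7.51 Mb, or 2.26 per Mb. The rate inside the regions was 33.3 times as high (20.4 to 58.0). Counting both, 269 of the 500 had a control EZH2 peak inside or within 10 kb, with peaks in narrower H3K27ac regions nearby included. The matching ratio and share were not counted for other H3K27ac regions, so these values describe the 500 alone.

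The share of regions with EZH2 was higher where acetylation was denser. In 4 equal groups of rising density (47.7 to 103, to 136, to 176 and to 756 tags per kb) a control EZH2 peak lay in 15.2%, 33.6%, 46.4% and 64.8% of the regions. The densest group was 49.6 points above the least dense (38.2 to 59.0). Peaks per Mb were 28.8, 61.9, 79.6 and 121 in the same groups. The shEZH2 list gave 7.20%, 9.60%, 23.2% and 23.2% of regions. Across the 500, the Spearman rho of density with the number of control EZH2 peaks was 0.38, against 0.03 for width.

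The same density groups were set against narrower regions. Regions ranked 2001 to 5000 by width gave 11.98%, 41.4%, 56.8% and 66.3% in the same 4 density groups. The 500 minus these were 3.22 points (-2.33 to 10.7), -7.76 points (-16.4 to 1.72), -10.4 points (-20.0 to -0.610) and -1.53 points (-11.1 to 7.36). The interval of the third group excludes 0 and those of the other groups include it. Regions ranked 501 to 1000 gave 7.32%, 34.5%, 46.3% and 68.1% in these groups, and ranks 1001 to 2000 gave 7.95%, 31.1%, 50.8% and 66.5%. Beside ranks 501 to 1000 the third group of the 500, at 46.4%, was thus not lower. In the first group both of these classes lay below the 15.2% of the 500. Intervals for these differences were not computed.

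**Figure D2:**
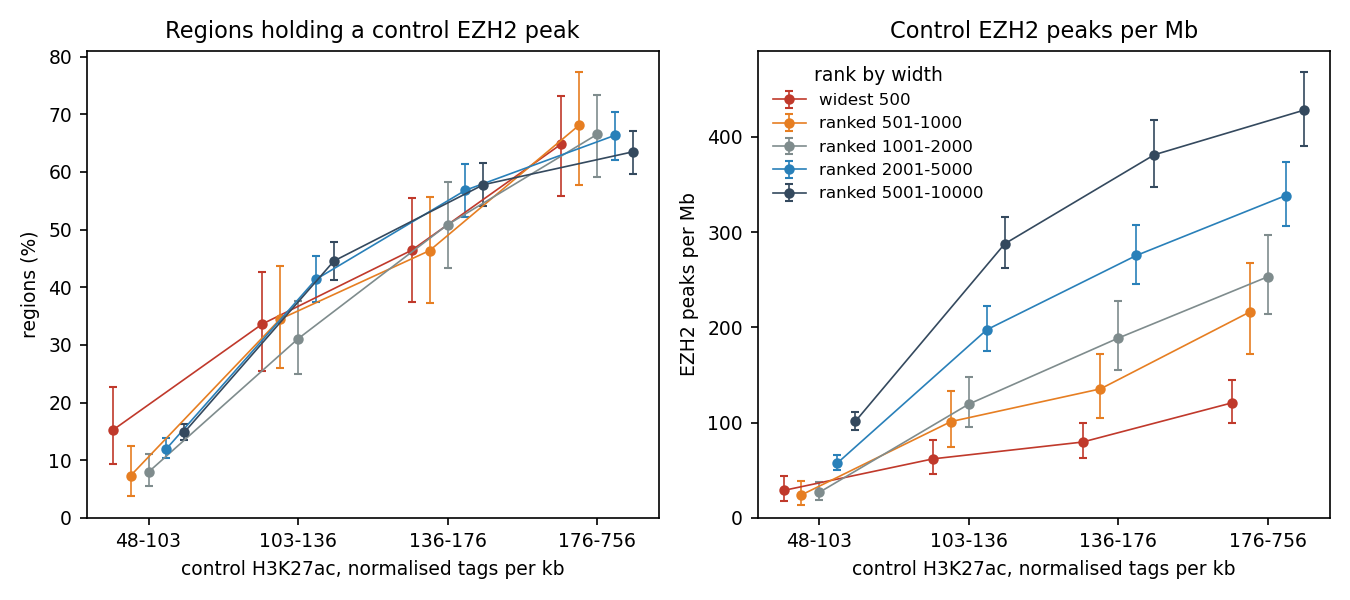
Percent of control H3K27ac regions that hold a control EZH2 peak (left) and control EZH2 peaks per Mb (right) in 4 classes of H3K27ac density, for 5 classes of width rank, with 95% intervals as bars. The widest 500 rise to 64.8% in the densest class and regions ranked 2001 to 5000 to 66.3%, while their peaks per Mb are the lowest at each density above the first class.

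EZH2 peaks sat at different places in wide and in narrower regions. Each region was divided into 5 equal shares of its length, counted from the centre to both edges. In the 500, the inner 40% of the length held 34.1% of the 258 control peak centres (28.3 to 40.2) and the outer 40% held 39.1% (33.2 to 45.4), so there was no crowding at the centre. In regions ranked 2001 to 5000 the inner 40% held 66.5% and the outer 40% held 14.5%. The inner share of the 500 was below that of the ranks 501 to 1000, at 49.5%, by 15.4 points (interval of the difference -24.1 to -6.49), and below that of all the other regions, at 58.5%, by 24.4 points (-30.0 to -18.3).

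**Figure D3:**
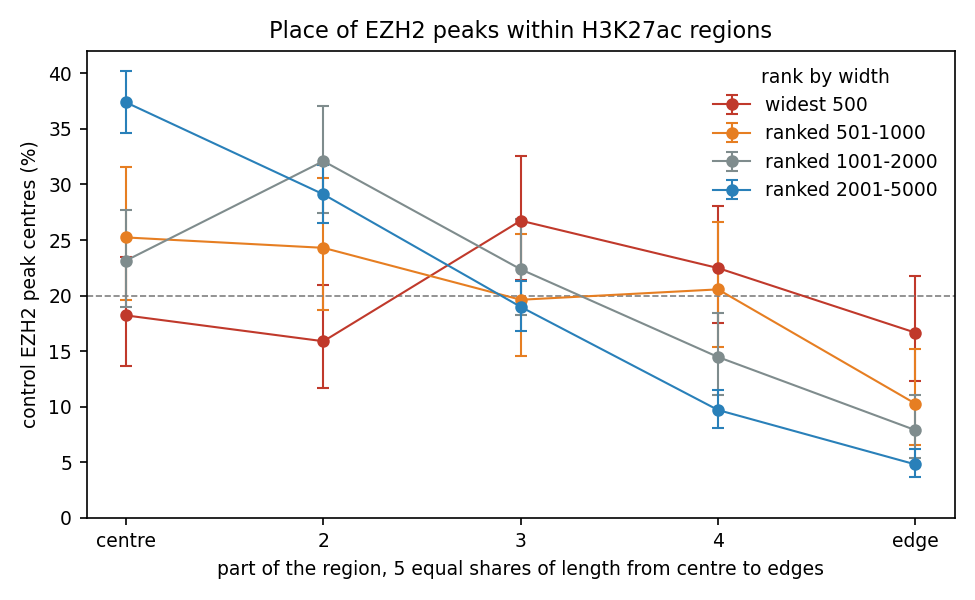
Percent of control EZH2 peak centres in each of 5 equal shares of the region's length, from the centre to the edges, for 4 classes of width rank, with 95% exact intervals; the dashed line marks an even spread. Regions ranked 2001 to 5000 fall steadily from centre to edge, whereas the widest 500 stay near the line and hold 34.1% of centres in the inner 2 shares.

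The control EZH2 peaks of the widest regions had the strength of those elsewhere when counted in tags. Their median was 9.75 tags, as it was for the 7095 control peaks in other H3K27ac regions, and 12.8% held at least 15 tags, against 13.1% of the others. The limit of the control list was 9 tags before scaling in windows of 183 bp, so most of these peaks lie close to what could be called. Against the surrounding 10 kb their median fold, as the authors' caller gave it, was 6.96 (6.48 to 7.52), against 10.2 (10.0 to 10.3) for the others. A peak had to reach 4-fold over its surroundings to be listed, and 17.4% of the peaks in the 500 were under 5-fold, against 3.31% of the others. That local rule had removed 37.8% of 15373 candidate peaks in shEZH2 cells and 38.6% of 37649 in control cells, and its part in the peaks per Mb and in their position was not tested.

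By the caller's score, the strongest control EZH2 peak in the set lay at chr18:108131-108313, with 140.6 tags in shEZH2 cells and 117.8 in control cells. The next lay in the widest region, at chrX:115004640-115004822, with 32.4 tags in shEZH2 cells and 42.8 in control cells. Another, at chr19:2051194-2051376, had 12.4 tags in shEZH2 cells and 38.3 in control cells. The fourth, at chr17:61919967-61920149, had 42.0 tags in control cells and overlapped no peak in the shEZH2 list. The first of these was higher in shEZH2 cells and the others were higher in control cells or listed there alone. Windows were 151 bp in shEZH2 cells and 183 bp in control cells. Of all 258 peaks, 5 held at least 25 tags in control cells.

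Of the 8 regions with 3 control EZH2 peaks, 2 also held 2 shEZH2 peaks: chr1:27018317-27025204 and chr3:49054408-49060674. In chr1:149820046-149826032 and chr5:107713899-107718689 the shEZH2 list had 1 peak. It had none in chr11:65623974-65629903, chr5:107004026-107009566, chr17:46795661-46807784 and chr1:155096739-155109766. These 8 regions were all dense, at 207 to 245 tags per kb, and 6 of them were under 7 kb wide.

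EZH2 peaks were fewer in shEZH2 cells in the widest regions as they were elsewhere. The ratio of the number of peaks, shEZH2 over control, was 0.337 in the 500 (87 over 258, interval 0.261 to 0.432), against 0.314 in other H3K27ac regions (0.299 to 0.329). Of the 258 control peaks, 57 overlapped a shEZH2 peak (22.1%, 17.2 to 27.7), against 19.6% of those in other H3K27ac regions and 19.7% of both together. That difference was 2.53 points (-2.20 to 8.06). The share depends on the length of the lists: it was 46.2% with the control list shortened by score to the length of the shEZH2 list, and 37.8% with its upper 50%. For peaks of at least 15 tags the 500 held 3 in the shEZH2 list and 33 in the control list, a ratio of 0.0909 (0.0178 to 0.290), against 0.163 (0.136 to 0.193) elsewhere.

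Whether a peak was called again went with its score, the caller's measure of its strength. In the 500, 5.94% of control peaks with a score of 9 or 10 were called again, 18.7% of those with 11 or 12, 21.4% of those with 13 or 14, 48.1% of those with 15 to 17 and 66.7% of those with 18 or more. In other H3K27ac regions the shares were 8.88%, 14.6%, 24.3%, 31.5% and 57.5%, and in each class the interval of the difference includes 0. The 57 peaks called again had a median of 8.27 tags in shEZH2 cells and of 12.8 in control cells. Their median log2 ratio per kb of peak was -0.30 (-0.48 to -0.09), and 40 of the 57 were lower in shEZH2 cells, against a median of -0.11 (-0.16 to -0.09) and 819 of 1388 lower in other H3K27ac regions. The difference between these medians was not tested. Peaks had to be listed in both cell groups to enter that median, which leaves out those that were not called again.

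H3K27me3 was nearly absent from the widest regions. In the shEZH2 list 1 of the 500 touched an H3K27me3 region (0.2%), against 1.55% of the other regions. In the control list 1 did (0.2%, interval 0.00506 to 1.11), against 0.849% of all 55120 regions. The shares were low in the next width classes too, so this was not particular to the 500. For ranks 501 to 1000, 1001 to 2000 and 2001 to 5000 they were 0.4%, 0.4% and 0.37% in the shEZH2 list. In the control list they were 0.2%, 0.3% and 0.37%. The interval of the difference from the other regions in the control list, -0.84 to 0.27 points, includes 0. Both lists named the same region, chr18:106602-111931, which was 5330 bp wide and held 496.6 H3K27ac tags. There the H3K27me3 region held 541.9 tags over 7397 bp in shEZH2 cells (chr18:105699-113095) and 463.2 tags over 4549 bp in control cells (chr18:106672-111220). The H3K27me3 windows were 1000 bp in shEZH2 cells and 150 bp in control cells, at thresholds of 9.53 and 26.0 tags per kb. These sums thus cover unlike lengths and do not compare the level of the mark. It is also the region of the strongest EZH2 peak given above.

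All 500 regions were overlapped by a region of the shEZH2 H3K27ac list (interval 99.3% to 100%), against 97.1% of all 55120. Of the 500, 496 lay wholly inside 1 shEZH2 region. They fell in 454 shEZH2 regions, 33 of which held more than 1, with a median width of 11.96 kb and a median of 1042 tags, against 1.84 kb and 30.7 tags over the whole shEZH2 list. Of the 454 widest regions of the shEZH2 list, 210 (46.3%) held 1 of the 500 or more, and of the 454 with the most tags 261 did (57.5%). All regions of ranks 501 to 10000 were overlapped as well, so full listing was not particular to the 500. They were not always the widest regions of shEZH2 cells.

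For the amount of H3K27ac, regions of both lists that overlap were joined and their tags summed on each side, which gave 455 joined groups for the 500 regions. Of these groups, 361 held 2 or more control regions, and the tags of all of them were summed. A group of the 500 counts below as having a control EZH2 peak only if the peak lay inside 1 of the 500. Peaks in its narrower regions were not counted. The median group held 1042 tags in shEZH2 cells and 1049 in control cells. The median log2 ratio of shEZH2 over control was -0.04 (-0.06 to -0.01), with 257 of 455 groups lower in shEZH2 cells and a range from -0.86 to 0.75. Over all 33284 joined groups of the control list the median was 0.53. Of those, 15.1% were lower in shEZH2 cells, against 56.5% at the 500 and 42.7% for ranks 501 to 1000. For summed tags the median was lower in wider classes: it was 0.04 for ranks 501 to 1000, 0.06 for ranks 1001 to 2000, 0.14 for ranks 2001 to 5000, 0.20 for ranks 5001 to 10000 and 0.82 for narrower regions. Within the 500 the Spearman rho of width with the ratio was -0.23 over 455 groups, and that of density was 0.00. Width chose the regions and comes from the library that is the denominator of the ratio, so this order is a description and the selection itself favours it.

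The listed widths moved with that order. The median group of the 500 was 11987 bp wide in shEZH2 cells and 8042 bp in control cells, a median ratio of 1.43, against 2.85 over all groups, and the part of the calling windows in the ratios was not tested. Per kb of listed region the median log2 ratio at the 500 was -0.60, with 454 of 455 groups lower in shEZH2 cells, against a median of -0.99 and 99.3% lower over all groups. On that scale the order of the width classes was reversed: -0.64 for ranks 501 to 1000, -0.66 for ranks 1001 to 2000, -0.71 for ranks 2001 to 5000, -0.75 for ranks 5001 to 10000 and -1.13 for narrower regions. In 75 groups whose wider side was at most 25% wider it was -0.26, and with each region alone set against the shEZH2 regions over it, which are wider by construction, it was 0.24. The sign of the overall ratio, and the order by width, therefore turned with the way widths were handled.

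**Figure D4:**
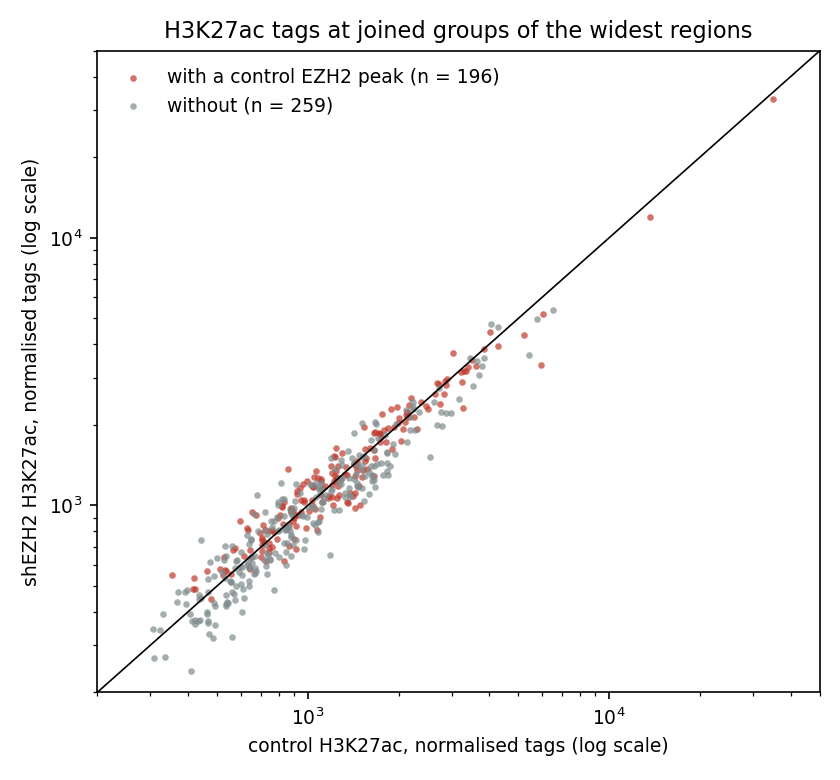
H3K27ac tags of shEZH2 cells (vertical, log scale) against control cells (horizontal, log scale) in the 455 joined groups of the widest regions. Groups with a control EZH2 peak inside a widest region are in red (n = 196) and those without in grey (n = 259). The groups lie along the line of equal tags, with the chromosome X region at the upper right at 33047 tags in shEZH2 cells and 35003 in control cells.

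The widest regions of all were mostly a little lower in shEZH2 cells. The chromosome X region held 33047 tags in shEZH2 cells and 35003 in control cells (log2 ratio -0.08). The chromosome 15 group held 5380 tags in shEZH2 cells and 6515 in control cells (-0.28). The group of chr19:13105421-13130507 held 5184 tags in shEZH2 cells and 6017 in control cells (-0.22). The group at chr14:100026136-100046727 went the other way, with 4636 tags in shEZH2 cells and 4266 in control cells (0.12). In the 10 widest, 8 were lower in shEZH2 cells, against 56.5% of all 455 groups. The chr22 group of 8 held 11949 tags in shEZH2 cells and 13708 in control cells (-0.20).

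Groups with a control EZH2 peak had a higher ratio than those without. The 196 groups with a peak had medians of 1186 tags in shEZH2 cells and 1216 in control cells and a median log2 ratio of 0.02 (-0.01 to 0.06), with 88 lower in shEZH2 cells. The 259 groups without one had medians of 905 tags in shEZH2 cells and 877 in control cells and a median log2 ratio of -0.10 (-0.16 to -0.06), with 169 lower. The difference of the medians was 0.12 (0.06 to 0.19). By the number of control EZH2 peaks the median was 0.16 for 3 or more (9 groups, -0.06 to 0.31), 0.00 for 2, 0.03 for 1 and -0.10 for none.

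That difference kept its sign within classes of density and of width. It was 0.23 (0.07 to 0.38), 0.15 (0.02 to 0.28), 0.11 (-0.01 to 0.23) and 0.08 (-0.05 to 0.20) in 4 groups of rising density, of which the last 2 intervals include 0. It was 0.14 in the wider 50% (0.05 to 0.23) and 0.14 in the narrower 50% (0.05 to 0.22). Regions ranked 501 to 1000 gave 0.13 and ranks 1001 to 2000 gave 0.11, so it was not particular to the 500. It was 0.05 and 0.02 in the next 2 classes, and -0.49 below rank 10000. There the median control width was 1003 bp with EZH2 and 497 bp without, and per kb the difference was 0.31 (0.29 to 0.32).

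Per kb the difference at the 500 was 0.14 (0.06 to 0.21), and it was positive in the other 5 width classes too, from 0.08 for ranks 501 to 1000 to 0.31 below rank 10000. In the 75 groups of like width the difference at the 500 was 0.24 (0.13 to 0.35). With each region alone set against the shEZH2 regions over it, the difference was -0.04 (-0.15 to 0.06), so the sign turned and the interval includes 0. The size of the difference is small beside the range of single groups.

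**Figure D5:**
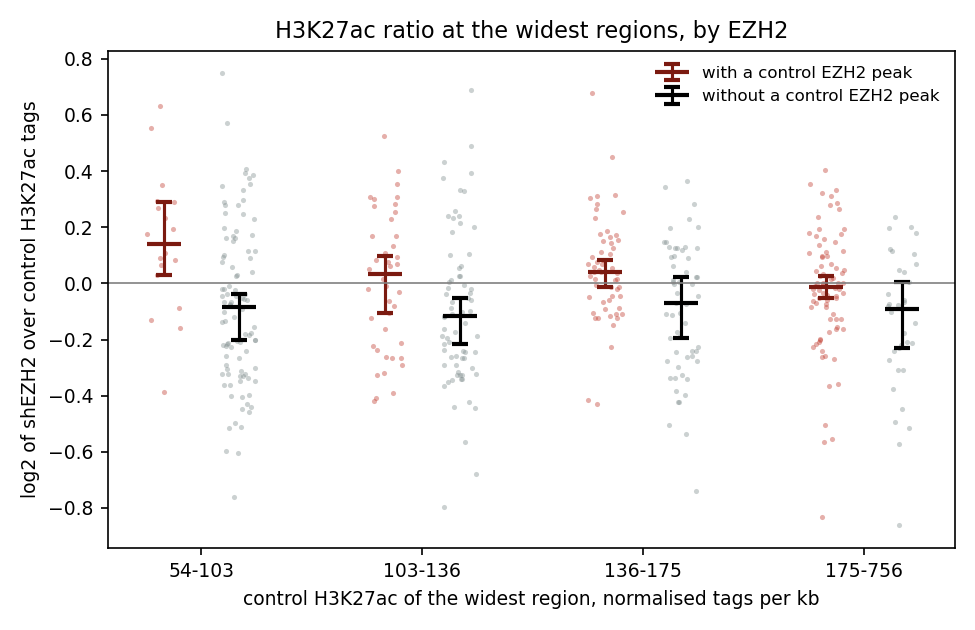
Log2 ratio of shEZH2 over control H3K27ac tags (vertical) in joined groups of the widest regions, by class of control H3K27ac density (horizontal, tags per kb). Groups with a control EZH2 peak inside a widest region are in red and those without in grey. Points are groups, lines are medians and bars their 95% order-statistic intervals. The median with EZH2 lies above that without in each class, by 0.23 in the least dense and by 0.08 in the densest.

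In summed tags, few of the widest regions differed much between the cell groups. A log2 ratio of -0.5 or below was reached by 18 of 455 groups, against 2.13% of all joined groups, and 4 of these held a control EZH2 peak and 14 did not. A ratio of 0.5 or above was reached by 7 of 455, against 51.5% of all joined groups, and 4 of these held a peak and 3 did not. Narrow regions make up most of both backgrounds, with 24424 of the 33284 groups from below rank 10000. Per kb of listed region 295 of the 455 groups were at -0.5 or below, against 87.4% of all joined groups, so the small number holds for summed tags alone.

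The lowest ratios included a run of neighbours on chromosome 19. The group of chr19:51350982-51365279, which joins 2 of the 500 and has 2 control EZH2 peaks, held 3342 tags in shEZH2 cells and 5944 in control cells (-0.83). The next one along, chr19:51369614-51384055, held 1518 tags in shEZH2 cells and 2535 in control cells (-0.74) and had no EZH2 peak. The third, chr19:51387381-51398967, held 1042 tags in shEZH2 cells and 1541 in control cells (-0.57). Farther off in the same cluster, chr19:51296802-51303797 held 1076 tags in shEZH2 cells and 1381 in control cells (-0.36); it and the group before it were named after their values were seen. All 4 groups of the widest regions in this stretch of about 102 kb were lower in shEZH2 cells, and the widths of the first were alike, at 27639 bp in shEZH2 cells and 26075 bp in control cells.

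Other low ratios lay on other chromosomes. The lowest of all, chr8:6455077-6460281, held 650 tags in shEZH2 cells and 1181 in control cells (-0.86), without a control EZH2 peak. At chr9:92234828-92239620 there were 323 tags in shEZH2 cells and 562 in control cells (-0.80). At chr8:102417872-102423734 there were 241 tags in shEZH2 cells and 408.9 in control cells (-0.76). The wide group of chr11:114034017-114050035 held 3638 tags in shEZH2 cells and 5403 in control cells (-0.57). At chr1:149820046-149826032, a region with 3 control EZH2 peaks, there were 1007 tags in shEZH2 cells and 1492 in control cells (-0.57). Of the 10 lowest, 8 had no control EZH2 peak, against 56.9% of all 455 groups.

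The 10 highest ratios were at members of 4707 to 7122 bp and the 10 lowest at members of 4793 to 16019 bp, so narrow members lay at both ends. The highest, chr16:89365481-89370622, held 742 tags in shEZH2 cells and 442 in control cells (0.75), over 23121 bp in shEZH2 cells and 5444 bp in control cells. At chr1:201248492-201253546 there were 1096 tags in shEZH2 cells and 680 in control cells (0.69). At chr10:33621191-33626814, with 2 control EZH2 peaks, there were 1373 tags in shEZH2 cells and 858 in control cells (0.68). At chr17:80196471-80202018, with 1 control EZH2 peak, there were 550 tags in shEZH2 cells and 354 in control cells (0.63). Per kb of listed region all of the 10 highest and all of the 10 lowest were lower in shEZH2 cells, as were 454 of all 455. Of the 10 highest, 5 had no control EZH2 peak, against the same 56.9%.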

How the data were processed

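ChIP-seq libraries of LNCaP cells were compared between shEZH2 and control (plko.1) cells, grouped by their titles, with 1 library per group. Fixation, in 1% paraformaldehyde, came 2 to 3 days past infection, and sonication gave fragments of 200 to 500 bp, per the labels' protocols. The 3 samples of tagged EZH2 and of a CTRL R1881 label were not analysed here. The submitters' processing notes name BWA 0.6.1, HOMER 4.1 and the build hg19.

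Per the file headers, the authors called each library by itself without input, the EZH2 and the control histone lists at a false discovery rate of 0.001 and the shEZH2 histone lists at a Poisson probability of 0.001. The deposited signal is the tag coverage of a region scaled to 10000000 tags, the deposited score is the caller's own, not scaled for depth, and the deposited fold over the surrounding 10 kb is a ratio from the caller. The deposited p-value against the local background, the fraction of a peak's tags that point to its centre and other columns of region length were not used as results.

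The 500 widest regions, and the lists used, were chosen with earlier results of these data known. Regions were intersected at 1 bp or more (Python 3.11.15, pandas 2.3.3, scipy 1.17.1, bedtools 2.31.1 as a check). Shares have exact Clopper-Pearson intervals, differences of shares Newcombe intervals, numbers per length exact Poisson intervals, medians order-statistic intervals and differences of medians Price-Bonett intervals. The code was tested on simulated data. Regions could be named if they were among the 10 widest, the 10 with most tags, the 10 with most control EZH2 peaks, the 10 lowest or highest ratios, or touched H3K27me3; other regions named were chosen after their values were seen. Size of the set, ranking quantity, chromosomes, gaps, overlap rule, list length and scaling were varied.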

Additional observations from a re-analysis of the deposited data

How the results depend on the processing

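Of 64 values recomputed under alternative settings, 45 kept their direction and moved by less than their interval, 16 moved farther and 3 changed sign. Leaving out the widest region, an alternative chosen after seeing the data, moved none of the 7 results, nor did leaving out chromosome X or counting the stretch before the first region of a chromosome. With the 500 regions of most tags in place of the widest, 58.6% held a control EZH2 peak, at 130 peaks per Mb. With the upper 50% of the control EZH2 list by score, 19.2% did, at 32.4 peaks per Mb, and 37.8% of those peaks were called again. Called-again shares were 46.2% with the control list shortened to the length of the shEZH2 list and 30.2% within 1 kb. With the 250 widest regions there were 65.7 peaks per Mb, H3K27me3 touched 0% and the median log2 H3K27ac ratio was -0.074. With the 1000 widest there were 86.8 peaks per Mb and the ratio changed sign, to 0.0021. The upper 50% of the shEZH2 H3K27ac list by score overlapped 56.4% of the 500. The ratio was -0.39 when scaled to the tags in listed regions, -0.60 per kb, -0.26 in groups of like width and 0.24 for each region alone. The difference with minus without EZH2 was 0.24 in groups of like width and -0.042 for each region alone. The last setting sets part of a joined group against the whole of it on the shEZH2 side; for the others the cause was not tested.

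One library per group, different calling windows for H3K27ac in the cell groups and the lack of an input limit what the ratios can show. Most EZH2 peaks lie near the limit of calling, at a median of 9.75 tags. A peak missing from the shEZH2 list was not called there and is not shown to be absent. Why such peaks were not called was not tested.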
